A study of Mus musculus with 2 samples.

Results

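The genes described here are 9 mouse trypsinogens (Prss1, Prss2, Prss3, Try4, Try5, Try10, 2210010C04Rik, Gm5771 and Gm10334) and Spink1, which encodes a trypsin inhibitor. They were chosen by name, as the trypsinogen paralogs and their inhibitor, with their WT and Mettl3pKO levels in acinar-like cells already known, and 10 of the 10 were among the 22023 genes listed for both libraries. Single-cell RNA sequencing of mouse pancreas at E15.5 used microwell cartridges with bar-coded beads and counted captured RNA molecules by their unique molecular identifiers (UMIs). There was 1 library of wild-type embryos (WT) and 1 of embryos lacking Mettl3 in Pdx1+ pancreatic progenitors (Mettl3pKO), and every cell of both came from that stage. Pdx1+ progenitors give rise to acinar, duct and endocrine cells, whereas mesenchyme, vessel and blood cells are outside the labelled deletion. The labels name neither the Cre line nor the deleted exons, nor how many embryos were pooled. With 1 library per genotype no test was possible, and intervals cover counting error only.

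Trypsinogens are the inactive precursors of trypsin. Acinar cells of the exocrine pancreas make them, store them in zymogen granules and release them into the gut, where enteropeptidase cuts them and trypsin then activates the other digestive zymogens. Spink1 is packed into the same granules and blocks trypsin that becomes active inside the cell. Maturing acinar cells leave the cell cycle and raise the level of digestive enzyme RNAs, trypsinogens among them. Mettl3 catalyses the methylation of adenosine at N6 in RNA.

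The 9 trypsinogen genes lie on chromosome 6 within 495 kb (GRCm38, 41030268 to 41525079), in the order 2210010C04Rik, Try4, Try5, Try10, Prss3, Gm5771, Gm10334, Prss1 and Prss2. Trbc1 and Trbc2, constant segments of the T cell receptor beta chain, follow Prss2. The transcripts resemble each other, and this limits how well single genes can be told apart. Of the 75-base stretches of the transcript, 99.1% were found in no other gene for Prss2, 100% for 2210010C04Rik and 100% for Spink1. That share was 46.1% for Prss3 and 48.6% for Gm10334, whose transcripts are 98.9% identical, and 56.1% to 75.3% for Try4, Gm5771, Try5, Prss1 and Try10. The sources used here do not state how reads matching several of these genes were counted, so the levels of those 7 genes taken singly are uncertain.

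Promoters are shown for Prss1 and Prss3, from the pairs with the lowest Mettl3pKO levels relative to WT, and for Prss2 and 2210010C04Rik, which stood apart from them. RefSeq (GRCm38.p6) gave a promoter for 7 of the 9 trypsinogens, all but Try5 and Try10. Each line holds the 250 bases before the start, 5′ to 3′ on the gene's strand. Capitals mark 3 motifs on either strand. The first, CACCTG, has the form of the E-box bound by basic helix-loop-helix factors such as Ptf1a. The second, TTTCCC, has the form of an Rbpj site and reads GGGAAA on the other strand. The third, TATAAA, is the TATA box. The regions are chr6:41458680-41458929 (plus strand), chr6:41377614-41377863 (minus), chr6:41521526-41521775 (plus) and chr6:41035510-41035759 (minus).
Prss1: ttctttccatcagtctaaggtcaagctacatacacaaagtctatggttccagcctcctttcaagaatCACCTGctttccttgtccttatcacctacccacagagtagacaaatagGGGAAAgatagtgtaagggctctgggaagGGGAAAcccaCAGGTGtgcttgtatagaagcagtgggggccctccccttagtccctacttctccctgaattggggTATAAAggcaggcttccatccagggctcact
Prss3: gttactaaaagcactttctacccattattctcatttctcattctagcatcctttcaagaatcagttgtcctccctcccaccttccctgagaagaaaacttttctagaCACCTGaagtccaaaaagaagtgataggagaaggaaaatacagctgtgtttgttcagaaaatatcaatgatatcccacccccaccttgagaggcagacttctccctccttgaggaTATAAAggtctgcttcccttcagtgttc
Prss2: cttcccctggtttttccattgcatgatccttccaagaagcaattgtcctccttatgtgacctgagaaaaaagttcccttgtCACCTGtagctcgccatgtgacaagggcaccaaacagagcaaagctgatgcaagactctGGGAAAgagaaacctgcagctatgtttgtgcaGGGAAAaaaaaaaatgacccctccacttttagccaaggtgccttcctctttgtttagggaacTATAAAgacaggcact
2210010C04Rik: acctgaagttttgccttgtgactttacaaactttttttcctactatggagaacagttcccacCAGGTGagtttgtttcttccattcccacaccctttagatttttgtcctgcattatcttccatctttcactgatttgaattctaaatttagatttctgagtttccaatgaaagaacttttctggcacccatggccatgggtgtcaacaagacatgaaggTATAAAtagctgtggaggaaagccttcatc

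CACCTG was in 7 of these 7 promoters and in 17.1% of all 27025 RefSeq mouse promoters of that length, and TATAAA was in 7 of 7 and in 13.0% of all. TTTCCC was in 3 of 7, Prss1, Gm5771 and Prss2, and in 21.9% of all. The general E-box form CANNTG, which overlaps CACCTG, was in 7 of 7 and in 66.0% of all. In Prss1 the TTTCCC matches began 135 and 106 bases before the start, between CACCTG matches at 183 and 96 bases. In Prss2 the matches to TTTCCC began 110 and 78 bases before the start and the CACCTG match at 169. The promoters of Prss1 and Gm5771 were 98.3% identical over their aligned bases, and those of Prss3 and Gm10334 97.0%. Those of Prss1 and Prss2 were 75.6% identical, and Prss2 held the same 3 motifs as Prss1. These matches are descriptions of sequence, and no binding was measured.

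After filtering, 6034 WT and 3622 Mettl3pKO cells were kept, and 1873 WT and 2147 Mettl3pKO cells fell in clusters named acinar-like from fixed markers, with the 10 genes kept out of the clustering. The Mettl3pKO cells were deeper (median 17394 UMIs, against 13124 in WT) and richer in mitochondrial UMIs (median 10.7%, against 6.22%). WT acinar-like cells lay mostly in cluster 8, led by Cpb1, Zg16 and Sycn (868 cells), and cluster 1 (585), and Mettl3pKO ones in cluster 0 (755) and cluster 2 (678). Clusters 0 and 2 were led by Serpina6, Vtn and Serpina10. Clusters took the class whose markers scored highest on average, each marker scaled between its lowest and highest cluster. In cluster 8 the score was 0.936 for acinar and 0.185 for duct and trunk. It was 0.541 and 0.305 in cluster 0, and 0.371 and 0.304 in cluster 2. The acinar name was thus less clear in clusters 0 and 2, which held 76 and 67 WT cells. The 16 acinar markers summed to 127009 UMIs per 1000000 UMIs of the cells (CPM) in WT and 75114 CPM in Mettl3pKO, and 11 duct and trunk markers to 1402 and 1793 CPM, with no marker of either list at 0. The 8 endocrine progenitor markers summed to 358 and 655 CPM, none of them at 0. The doublet caller did not work on the Mettl3pKO library, and 33 cell labels occurred in both libraries. The part of these differences in the results was not tested. Mettl3 itself stood at 9.27 CPM in WT and 7.22 CPM in Mettl3pKO acinar-like cells (ratio 0.779, 95% interval 0.656 to 0.924), a value that does not check the deletion because the deleted exons are not named.

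In acinar-like cells the 10 genes differed widely in their Mettl3pKO level relative to WT. For Prss1 the WT level was 524 CPM (95% Poisson interval 516 to 533) and the Mettl3pKO level 27.6 CPM (26.0 to 29.3), and the level was 19.0 times higher in WT (17.9 to 20.2). Gm5771 stood at 116 and 7.54 CPM, 15.4 times higher in WT (13.7 to 17.4). Gm10334 stood at 240 and 18.1 CPM, 13.2 times higher in WT (12.3 to 14.3). These genes and Prss3, which stood at 329 and 25.8 CPM (ratio of Mettl3pKO to WT 0.0783, 0.0734 to 0.0835), lie next to each other on the chromosome. The uncertainty about near-identical transcripts applies most to these neighbours. Try10, the next gene upstream, stood at 656 CPM in WT and 86.7 CPM in Mettl3pKO, 7.57 times higher in WT (7.30 to 7.85). Try5 stood at 1229 and 239 CPM, 5.14 times higher in WT (5.02 to 5.25). The genes at the other end of the locus differed less between libraries. 2210010C04Rik stood at 254 CPM in WT and 55.6 CPM in Mettl3pKO, 4.56 times higher in WT (4.35 to 4.79). Try4 stood at 76.8 and 20.8 CPM, 3.69 times higher in WT (3.41 to 4.00).

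Prss2, at the end of the locus next to Prss1, was the exception. Its WT level was 1310 CPM (1296 to 1323) and its Mettl3pKO level 989 CPM (979 to 998), a Mettl3pKO/WT ratio of 0.755 (0.744 to 0.766). Spink1 (chromosome 18, 43728082 to 43737557, minus strand, GRCm38) stood at 2385 CPM in WT and 403 CPM in Mettl3pKO, 5.92 times higher in WT (5.82 to 6.02). The 9 trypsinogens together stood at 4735 and 1470 CPM (ratio 0.310, 0.307 to 0.313), and the 8 without Prss2 at 3425 and 481 CPM (ratio 0.141, 0.138 to 0.143). All 10 genes passed the filter of 20 UMIs over both libraries, and 9 were at least 1.5-fold lower in Mettl3pKO, where 8.84% of the 13611 genes that passed it were. Since the genes were chosen with this contrast known, nothing is read from that count. Ordered from the lowest ratio of all genes, Prss1 was number 3, Gm5771 4, Gm10334 5, Prss3 7, Try10 17, Spink1 35, Try5 57, 2210010C04Rik 72, Try4 132 and Prss2 1826. Summed counts do not tell fewer cells with the RNA from less RNA per cell.

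Single cells were thinned to 10000 UMIs each, which left out 488 WT acinar-like cells and no Mettl3pKO ones, and counted as with or without a UMI. Prss1 had a UMI in 55.2% of WT cells (52.6 to 57.9) and in 7.82% of Mettl3pKO cells (6.72 to 9.04), and unthinned in 64.9% and 10.9%. Spink1 had one in 93% of WT cells (91.5 to 94.3) and in 60.1% of Mettl3pKO cells (58.0 to 62.2), and unthinned in 95.9% and 72.3%. Both genes were thus seen in a smaller share of Mettl3pKO cells at equal depth. Prss2 had a UMI in 84.1% of WT cells (82.1 to 86.0) and in 82.8% of Mettl3pKO cells (81.1 to 84.3), and unthinned in 90.6% and 89.1%, with a median of 5 and 4 UMIs per thinned cell. For Spink1 that median was 17 and 1. In thinned mesenchyme-like cells, which should lack these RNAs, Prss1 had a UMI in 4.51% of WT and 1.77% of Mettl3pKO cells, Prss2 in 10% and 13.1% and Spink1 in 24.3% and 15.6%, and before thinning the median depth of those cells was 8926.5 and 13431 UMIs. For each of the 3 genes the acinar share lay above the mesenchyme share of its own library.

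**Figure D1:**
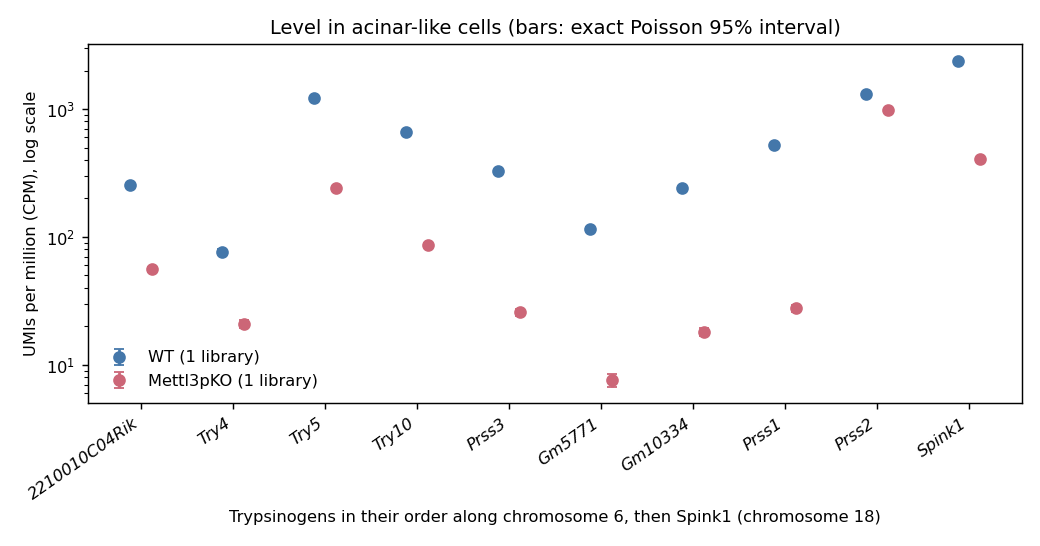
Summed UMIs scaled to CPM (log axis) of each gene in acinar-like cells of the WT library (blue) and the Mettl3pKO library (red), trypsinogens in chromosome order and then Spink1; bars are exact Poisson 95% intervals, mostly smaller than the points. WT lies above Mettl3pKO for each gene, with the widest gaps from Prss3 to Prss1 and the narrowest at Prss2 (1310 and 989 CPM).

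Maturity was read from Cpb1, a carboxypeptidase precursor that is not one of the 10 genes. Cpb1 itself stood at 2924 CPM in WT and 303 CPM in Mettl3pKO. Its ratio of 0.104 was the lowest among 23 digestive enzymes other than trypsinogens. The split into states and the matching below depend on that choice of gene. Cells with at least 10 Cpb1 UMIs per 10000 were called mature. WT held 993 of them (53.0% of its acinar-like cells, exact binomial 95% interval 50.7 to 55.3), and Mettl3pKO held 134 (6.24%, 5.26 to 7.35). This is a range of a score and not a cell type, and 94 WT and 47 Mettl3pKO cells lay between 8 and 12. Within each library each of the 10 genes was at least 1.5-fold higher in mature than in immature cells, where 4.17% of genes were in WT and 8.69% in Mettl3pKO. In WT the mature to immature ratio ran from 2.84 for Prss2 to 9.39 for 2210010C04Rik, and in Mettl3pKO from 2.34 for Prss2 to 24.2 for Prss1. Prss1 stood at 178 CPM in immature and 922 CPM in mature WT cells, and at 11.6 and 280 CPM in Mettl3pKO. Both Mettl3pKO values lay below the WT value of the same state. Spink1 stood at 1136 and 3822 CPM in WT and at 315 and 1783 CPM in Mettl3pKO. Prss2 stood at 706 and 2004 CPM in WT and at 915 and 2145 CPM in Mettl3pKO, where both pooled values lay above those of WT. In WT cells with Y-linked UMIs and no Xist, Prss2 stood at 1175 CPM (immature) and 4182 CPM (mature). In such Mettl3pKO cells it stood at 1059 and 2297 CPM. In cells with Xist and no Y-linked UMIs, it stood at 598 and 1623 CPM in WT. The Mettl3pKO values there were 548 and 1749 CPM (18 mature cells). The part of this mix of cells in the pooled levels was not tested. At least 1.5-fold lower in Mettl3pKO were 9 of the 10 genes among mature cells, with Prss2 as the other one (background 5.72%), and 8 among immature cells, with Prss2 and 2210010C04Rik outside (background 8.13%). Cpb1 itself had a ratio of 0.597 among mature and 0.383 among immature cells, so the states were not matched for it.

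Cells were then compared in 5 ranges of Cpb1. Below 1 Cpb1 UMI per 10000 there were 360 WT and 1532 Mettl3pKO cells, and at 30 or more there were 662 and 51. In WT, Prss1 stood at 85.3, 191, 292, 477 and 1188 CPM from the lowest to the highest range, and in Mettl3pKO at 6.56, 26.0, 28.8, 115 and 567 CPM. Prss1 was thus lower in Mettl3pKO in each range, with ratios between 0.0769 in the lowest and 0.477 in the highest. Spink1 stood at 586, 1188, 1824, 2536 and 4589 CPM in WT and at 207, 475, 862, 1093 and 2976 CPM in Mettl3pKO, with ratios between 0.353 and 0.649. Prss2 stood at 551, 637, 959, 1459 and 2329 CPM in WT and at 750, 1185, 1717, 1721 and 2878 CPM in Mettl3pKO. Prss2 was higher in Mettl3pKO in each range, with ratios of 1.18 to 1.86, but at matched Cpb1 it was lower (0.802) in the cells that had UMIs of Y-linked genes and none of Xist. 2210010C04Rik was close to equal, with ratios of 0.866 to 1.13, and stood at 27.1 CPM in WT and 29.8 CPM in Mettl3pKO in the lowest range and at 694 and 605 CPM in the highest.

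The lowest range was not matched for Cpb1 itself, which stood at 32.3 CPM there in WT and 16.6 CPM in Mettl3pKO. In the range of 1 to 3, Cpb1 stood at 182 and 177 CPM, a ratio of 0.974, and Prss1 had a ratio of 0.136, Gm10334 of 0.122, Spink1 of 0.400 and Prss2 of 1.86. At least 1.5-fold lower were 7 of the 10 genes in the range below 1 (background 7.02%), 8 in the range of 1 to 3 (background 7.51%), 7 in that of 3 to 10 (background 8.69%), 6 in that of 10 to 30 (background 6.5%) and 6 at 30 or more (background 8.09%). Prss2 was at least 1.5-fold higher in the ranges of 1 to 3 (background 13.1%) and 3 to 10 (background 13.8%).

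Weighting the WT ranges by the UMIs of the Mettl3pKO cells in each range gave levels at matched Cpb1. Prss1 was then 5.75 times higher in WT (5.37 to 6.16), Gm5771 4.27 times (3.73 to 4.90), Prss3 3.91 times (3.63 to 4.22) and Gm10334 3.46 times (3.16 to 3.79). Try10 was 3.17 times higher in WT (3.03 to 3.31), Spink1 2.36 times (2.31 to 2.41) and Try5 2.14 times (2.08 to 2.21). The ratio of Mettl3pKO to WT was 0.821 (0.733 to 0.920) for Try4, 1.01 (0.937 to 1.08) for 2210010C04Rik and 1.46 (1.43 to 1.49) for Prss2, which had 0.802 (0.763 to 0.842) in cells with Y-linked UMIs alone and 1.13 (1.08 to 1.17) in cells with Xist alone. The interval for 2210010C04Rik held 1, so no difference was seen in the pooled cells. Its ratio was 1.42 (1.19 to 1.68) in cells with Y-linked UMIs alone and 0.911 (0.799 to 1.04) in cells with Xist alone. The matched ratio was 0.773 (0.763 to 0.784) for the trypsinogen sum and 0.394 (0.386 to 0.401) without Prss2. After this matching 7 of the 10 genes were at least 1.5-fold lower, beside 7.96% of all genes. Cpb1 itself kept a ratio of 0.839, so the matching was not complete. When cells were matched on 9 other genes instead, the ratio was 0.594 for the trypsinogen sum and 0.329 for Spink1. That matching was not run for single trypsinogens, Prss2 included.

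**Figure D2:**
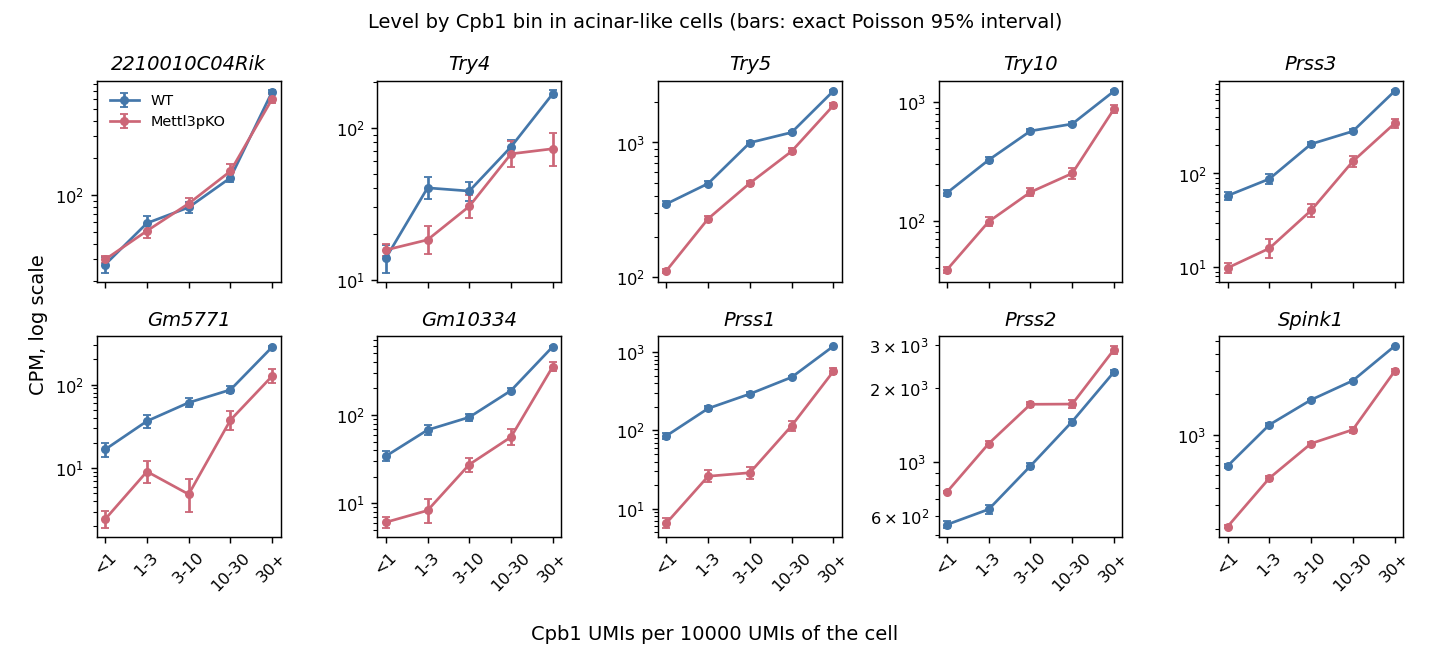
CPM (log axis, different scale in each panel) of each gene in acinar-like cells of 5 ranges of Cpb1 UMIs per 10000, WT in blue and Mettl3pKO in red, 1 library each; bars are exact Poisson 95% intervals. The red line runs below the blue one for Prss1 (0.0769 to 0.477 of WT) and Spink1, along it for 2210010C04Rik and above it for Prss2 (1.18 to 1.86 times WT).

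Genotypes were also compared within single clusters. In cluster 8, the cluster with the most Cpb1, Prss1 stood at 1030 CPM in WT and 362 CPM in Mettl3pKO (ratio 0.351), Spink1 at 4173 and 3040 CPM (0.728) and Prss2 at 2359 and 3482 CPM (1.48). The ratios of these 3 genes kept the order seen over all acinar-like cells, with Prss1 lowest and Prss2 highest. The direction of Prss2 differed, being above WT in cluster 8 and below it (0.755) over all acinar-like cells. Prss1 had a ratio of 0.0920 to 0.351 over the 5 acinar-like clusters, Gm5771 of 0.141 to 0.329 (the lowest in cluster 2, where Mettl3pKO cells held it at 0.849 CPM, below its 1.08 CPM in duct and trunk-like cells of that library), Gm10334 of 0.163 to 0.548 and Spink1 of 0.351 to 0.728. Prss2 had a ratio of 0.951 in cluster 1 and of 1.21 to 2.01 in the other 4, without a split by Y-linked and Xist UMIs. In cluster 0, which held 76 WT cells, Try5 stood at 87.3 CPM in WT and 229 CPM in Mettl3pKO (ratio 2.62) and Try4 at 10.9 and 23.4 CPM (2.15). Prss3 was near equal in that cluster (15.1 and 15.6 CPM). Cluster 2 (67 WT cells) held Try5 at 49.6 and 85.0 CPM (1.71). These higher values rest on few WT cells, also without that split. In cluster 0, Try4 stood at 0 CPM in 24 of the WT cells, those not called cycling (defined below). Over all acinar-like cells, Try5 was higher in cells with Y-linked UMIs alone than in those with Xist alone. The ratios were 1.96 in WT and 2.22 in Mettl3pKO.

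Cycling cells were those with at least 2 UMIs over 9 proliferation genes. WT held 1250 of them among 1873 (66.7%, 64.6 to 68.9), and Mettl3pKO held 1840 among 2147 (85.7%, 84.1 to 87.2). Deeper cells pass this call more easily, and the median was 14721 UMIs in cycling WT cells and 18118 in cycling Mettl3pKO cells. Within each library each of the 10 genes was at least 1.5-fold lower in cycling than in other cells, where 6.22% of genes were in WT and 7.17% in Mettl3pKO. In WT the trypsinogen sum stood at 9125 CPM in cells not called cycling and 3104 CPM in cycling cells, and in Mettl3pKO at 3626 and 1182 CPM. The ratios of cycling to other cells, 0.340 in WT and 0.326 in Mettl3pKO, were close. Single genes had ratios from 0.249 (Gm10334) to 0.454 (Try10) in WT and from 0.192 (Gm10334) to 0.572 (Try4) in Mettl3pKO. Cycling and maturity overlap, so immature cells were taken alone: 10 genes in WT (background 8.51%) and 9 in Mettl3pKO (background 7.32%) were at least 1.5-fold lower in cycling cells, Try4 in Mettl3pKO (ratio 0.732) being outside. Among immature cells the trypsinogen sum had ratios of 0.379 in WT and 0.363 in Mettl3pKO. Over all acinar-like cells Cpb1 had a ratio of 0.337 in either library, close to that of the trypsinogen sum. Mettl3pKO was at least 1.5-fold below WT for 9 genes among cycling cells (background 8.32%) and for 9 among other cells (background 7.46%), with Prss2 outside both times.

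Split by both states, Prss1 in immature cells stood at 144 CPM (cycling) and 348 CPM (not cycling) in WT and at 9.57 and 27.7 CPM in Mettl3pKO. Among mature cells it stood at 624 and 1397 CPM in WT and at 234 and 434 CPM in Mettl3pKO. Each Mettl3pKO value lay below the WT value of the same state, and the ratios were 0.0667, 0.0796, 0.376 and 0.310. Prss2 had ratios of 1.31, 1.63, 1.26 and 1.19 in the same 4 states, without a split by Y-linked and Xist UMIs. Try5 had a ratio of 0.978 among mature cells not called cycling (2942 and 2876 CPM), a group of 434 WT and 36 Mettl3pKO cells, and of 0.314 to 0.556 in the other 3 states. Spink1 in mature cells stood at 3066 CPM (cycling) and 5022 CPM (not cycling) in WT and at 1364 and 3172 CPM in Mettl3pKO.

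Depth moved with these levels. Of the WT acinar-like cells, 605 (32.3%) had fewer UMIs than the shallowest Mettl3pKO cell, and they held Prss1 at 814 CPM, Prss2 at 1940 CPM and Spink1 at 4011 CPM, each above the WT level over all acinar-like cells. In WT, cells with at least 20000 UMIs held Spink1 at 1205 CPM and Prss1 at 269 CPM, against 2902 and 636 CPM in shallower cells. At 13000 UMIs or more in both libraries (951 WT and 1900 Mettl3pKO cells), 9 of the 10 genes were at least 1.5-fold lower in Mettl3pKO (background 8.26%), and the ratio was 0.0713 for Prss1, 0.223 for Spink1, 0.370 for 2210010C04Rik and 0.974 for Prss2. By depth range, the ratio of Prss2 was 0.640 from the lowest Mettl3pKO total to 13000 UMIs, 0.888 from there to 16000, 1.01 to 20000 and 1.05 above. The ratio of Prss1 stayed between 0.0365 and 0.0909 over those ranges and that of Spink1 between 0.192 and 0.257. At matched Cpb1 and 13000 UMIs or more, Prss1 had a ratio of 0.221, Spink1 of 0.481 and Prss2 of 1.63.

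The make-up of the trypsinogen UMIs differed between libraries. A UMI counts a captured molecule, so these shares were not divided by transcript length. Prss2 held 27.7% of the trypsinogen UMIs of WT acinar-like cells (27.4 to 27.9) and 67.3% of those of Mettl3pKO (66.9 to 67.6). Its share was 33.4% in immature and 25.9% in mature WT cells, and 73.4% and 43.1% in Mettl3pKO, so that it was lower in mature cells in both libraries and higher in Mettl3pKO in both states. There were 2.50 UMIs of Prss2 for each of Prss1 in WT and 35.8 in Mettl3pKO, and in mature cells 2.17 and 7.65. For each 100 trypsinogen UMIs there were 50.4 of the inhibitor Spink1 in WT and 27.4 in Mettl3pKO. In mature cells those numbers were 49.3 and 35.8, and in cells with the most Cpb1 47.5 and 38.6. In WT cells with Xist and no Y-linked UMIs, Spink1 stood at 2292 CPM and the trypsinogen sum at 4178 CPM. In WT cells with Y-linked UMIs and no Xist, they stood at 2146 and 6113 CPM. The Mettl3pKO levels were 360 and 893 CPM in the first kind of cell and 422 and 1704 CPM in the second. The part of this mix of cells in the pooled numbers was not tested. Immature cells held 53.7 Spink1 UMIs per 100 trypsinogen UMIs in WT and 25.3 in Mettl3pKO. From the lowest to the highest Cpb1 range, WT held 44.8, 61.3, 55.3, 55.7 and 47.5 per 100. Mettl3pKO held 21.3, 28.2, 33.0, 32.2 and 38.6.

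UMIs of these genes were also counted, at low levels, in cells outside the acinar class. The trypsinogen sum stood at 60.4 CPM in the median of 12 other classes in WT (1.28% of the acinar level) and at 47.0 CPM in the median of 5 in Mettl3pKO (3.20%). Prss2 held 24.8% (21.2 to 28.7) of the 524 trypsinogen UMIs of WT mesenchyme-like cells and 51.0% (42.6 to 59.4) of the 145 in Mettl3pKO ones. Duct and trunk-like cells gave 22.5% in WT and 55.0% in Mettl3pKO. Whether these UMIs were RNA of acinar cells in the same library was not tested. The shares are therefore not a second observation beside the acinar ones. Low acinar values have to be set beside the level in other classes. In cluster 2 of Mettl3pKO, Prss1 at 2.33 CPM lay near its highest level in another class of that library, 1.76 CPM in mesenchyme-like cells. Gm5771 in Mettl3pKO cells with the least Cpb1, at 2.44 CPM, compares with at most 1.08 CPM in another Mettl3pKO class. Prss1 in the same cells, at 6.56 CPM, compares with that 1.76 CPM, whereas Prss1 in the WT cells with the least Cpb1, at 85.3 CPM, compares with at most 10.1 CPM.

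**Figure D3:**
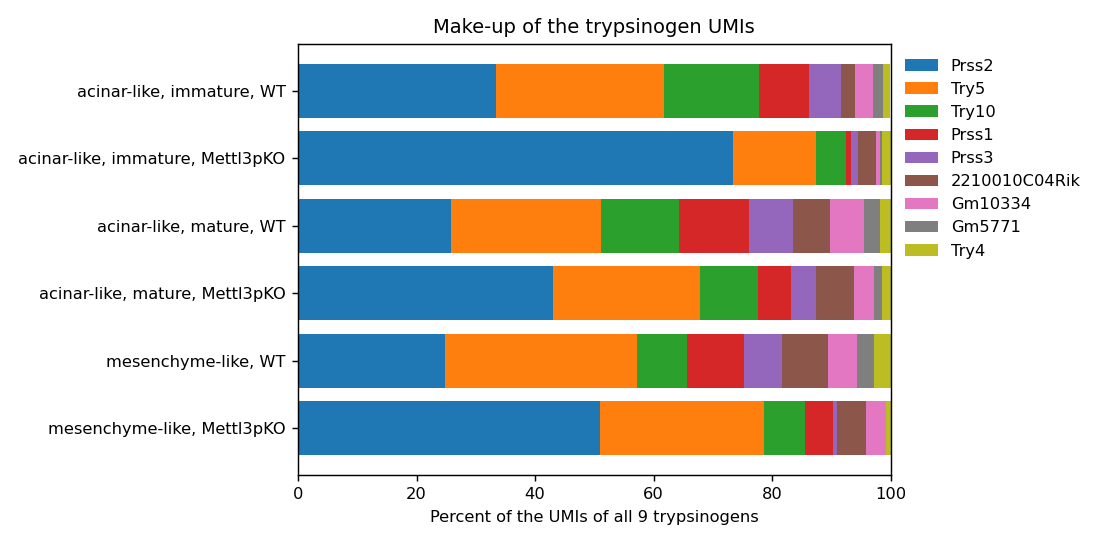
Percent of the UMIs of all 9 trypsinogens held by each gene (colours) in immature and mature acinar-like cells and in mesenchyme-like cells, 1 bar per library. Prss2 takes 33.4% and 25.9% of the WT acinar bars and 73.4% and 43.1% of the Mettl3pKO ones.

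Some cells of each library had UMIs of Y-linked genes without Xist (Y-linked cells here), and some had Xist without Y-linked UMIs (Xist cells). The first kind was 171 of the WT acinar-like cells (9.13%) and 1117 of the Mettl3pKO ones (52.0%), and the second 1379 (73.6%) and 436 (20.3%). Sex and embryo cannot be told apart here. Prss2 was higher in Y-linked cells in both libraries: in WT it stood at 2317 CPM there and 1065 CPM in Xist cells (ratio 2.18, 2.11 to 2.24), and in Mettl3pKO at 1138 and 598 CPM (ratio 1.91, 1.85 to 1.96). Try5 had ratios of 1.96 in WT (1995 and 1018 CPM) and 2.22 in Mettl3pKO (307 and 138 CPM). Spink1 differed little by this split, with ratios of 0.936 and 1.17. Prss1 was lower in Y-linked cells in WT (337 and 523 CPM) and higher in Mettl3pKO (26.0 and 9.71 CPM). By state, the Prss2 ratio was 1.96 among immature WT cells (93 Y-linked and 663 Xist) and 2.58 among mature WT cells (78 and 716). In Mettl3pKO it was 1.93 and 1.31, and the mature cells there numbered 74 and 18. The part of maturity in this difference was not tested.

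The Mettl3pKO/WT ratio was then taken within each kind of cell. For Prss2 it was 0.491 (0.477 to 0.506) within Y-linked cells and 0.561 (0.544 to 0.578) within Xist cells, both below the 0.755 over all acinar-like cells. At matched Cpb1 it was 0.802 (0.763 to 0.842) in Y-linked cells and 1.13 (1.08 to 1.17) in Xist cells, against 1.46 over all. The part of the mix of cells in the pooled Prss2 ratios was not tested, and the WT Y-linked cells numbered 171. At matched Cpb1, 2210010C04Rik had ratios of 1.42 in Y-linked and 0.911 in Xist cells, and Try4 of 0.892 (0.688 to 1.16) and 0.485 (0.380 to 0.618). Prss1 had ratios of 0.0773 and 0.0186 in the Y-linked and the Xist cells, Spink1 of 0.197 and 0.157, and at matched Cpb1 Prss1 had 0.114 and 0.0712 and Spink1 0.490 and 0.409. In each kind of cell each of the 10 genes, Prss2 included, was at least 1.5-fold lower in Mettl3pKO, beside 10.6% of all genes in Y-linked cells and 8.88% in Xist cells.

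**Figure D4:**
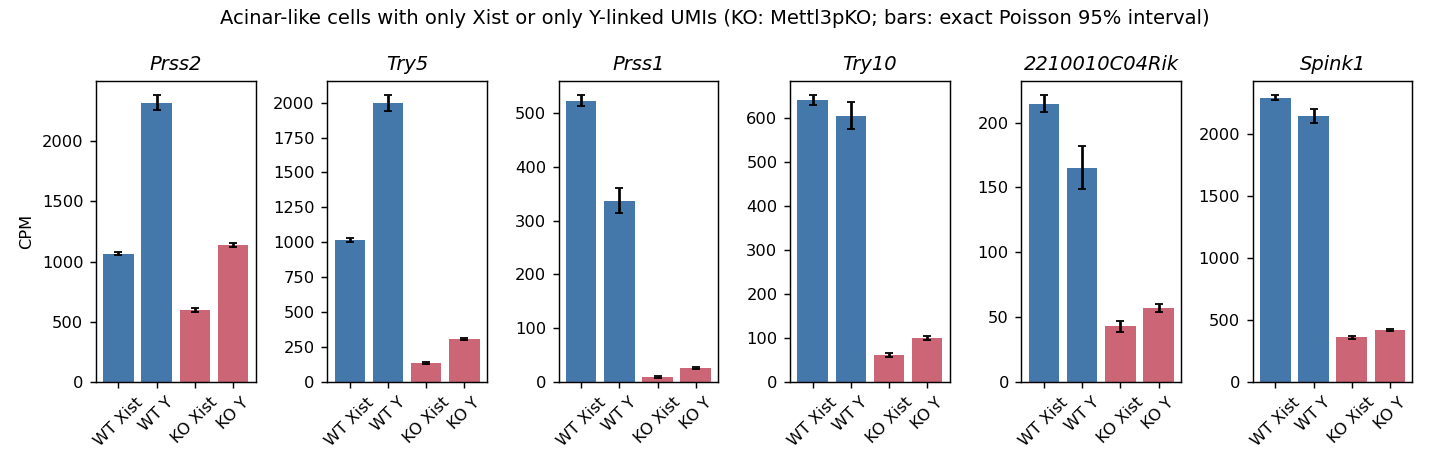
CPM of 6 genes in acinar-like cells with only Xist or only Y-linked UMIs of each library (linear axes from 0, different scale in each panel; KO is Mettl3pKO); bars are exact Poisson 95% intervals. Prss2 and Try5 are higher in the Y-linked cells of both libraries (2317 and 1065 CPM for Prss2 in WT), and each gene is lower in Mettl3pKO than in WT within either kind of cell.

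Other genes of the secretory programme were taken from lists. Of 23 other digestive enzymes with enough UMIs, 15 were at least 1.5-fold lower in Mettl3pKO and none was higher, beside 8.84% and 20.6% of all genes. Their median log2 ratio was -0.81, and that of all genes tested 0.17. The farthest from equal were Cpb1 (2924 CPM in WT and 303 CPM in Mettl3pKO) and the amylases Amy2a5 (39.4 and 11.9 CPM) and Amy2a3 (24.3 and 8.20 CPM), whose near-identical copies make them uncertain. At matched Cpb1, 3 were lower and 2 higher (7.96% and 10.9% of all genes) and the median was -0.18. The median of the 10 genes described here was -2.74 before and -1.45 after matching. They were chosen with this contrast known, so nothing is read from their distance to the list. Of 13 genes of trypsin control other than Spink1, none was lower and 7 were higher (median log2 ratio 0.75), beside 8.84% and 20.6% of all genes. Those farthest from equal encode alpha-1-antitrypsins, secreted serine protease inhibitors with near-identical copies: Serpina1a (2.14 and 7.73 CPM), Serpina1b (8.14 and 28.5 CPM) and Serpina1d (0.582 and 2.03 CPM). Of 11 zymogen granule genes 3 were lower and 3 higher, beside 8.84% and 20.6% of all genes, so nothing is read from these counts. Zg16, a granule lectin, stood at 240 and 60.0 CPM, Cuzd1, a granule membrane protein, at 12.4 and 3.18 CPM, and Sycn, the granule protein syncollin, at 680 and 234 CPM. The higher ones were Gp2 (20.1 and 44.5 CPM), Muc1 (108 and 184 CPM) and Rab27b (31.9 and 49.9 CPM). At matched Cpb1, 0 of the 11 granule genes were lower and 2 were higher, beside 7.96% and 10.9% of all genes. Zg16 then had a ratio of 1.00, Cuzd1 of 0.686, Sycn of 0.789 and Gp2 of 3.62.

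Of 13 acinar transcription factors, 1 was lower and 1 higher, beside 8.84% and 20.6% of all genes, so nothing is read from these counts. Rbpjl, the Rbpj paralog that works with Ptf1a at digestive enzyme promoters, stood at 1177 CPM in WT and 643 CPM in Mettl3pKO (ratio 0.546), while Mecom had a ratio of 1.55 and Gata6 of 1.45. Ptf1a stood at 231 and 329 CPM. At matched Cpb1 none of the 13 was 1.5-fold lower or higher, beside 7.96% and 10.9% of all genes. Of 4 other trypsinogen-like genes with enough UMIs, Prss8, a membrane-anchored protease, was higher (143 and 237 CPM) and Gm4744, at 1.45 and 0.881 CPM, lower. With 20.6% of all genes higher and 8.84% lower, nothing is read from these counts. 1810009J06Rik, beside the locus, stood at 0.872 and 0.954 CPM. Trbc2, beyond Prss2 on the other side, stood at 170 CPM in WT and 91.9 CPM in Mettl3pKO.

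Likeness was measured as Pearson's r over 16 sums (5 clusters, both libraries, both cycling states, groups of 20 or more cells), which share library, depth and cluster, and is given with no test. Spink1 and Prss1 had r = 0.947 and Spink1 and Try10 0.971, while Prss1 and Prss2, neighbours on the chromosome, had r = 0.443 and Prss2 had at most 0.772 with another of the 10 genes, 2210010C04Rik. Prss1 and Gm5771 had r = 0.972. Among 2035 other genes the trypsinogen sum was most like Ctrb1, the chymotrypsinogen gene (r = 0.957), followed by Gabarap, H13, Sycn, Erp27, Tcf25, Pdia2 and Cpe (0.935). Spink1 was most like Pdia2, a pancreatic disulfide isomerase (r = 0.977), followed by Serpini2, Gc, Gamt, Cope, Reep5, Copz1 and Creld2 (0.969).

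Methylation of RNA was not measured, but the transcripts can be searched for GGAC, a common core of the Mettl3 target motif. On the sense strand Prss2 held 4.91 GGAC per 1000 bases, Try5 6.24, Try4 4.99 and Try10 4.65. Prss3 held 2.43, Gm10334 2.28, Spink1 1.37, Gm5771 1.25, Prss1 1.24 and 2210010C04Rik 0.934. The median over 21877 protein-coding genes was 3.93 (quartiles 2.73 and 5.32). Prss1, Gm5771, Gm10334, Prss3, Spink1 and 2210010C04Rik lay below that median, and Prss2, Try5, Try4 and Try10 above it. A match is only a string of letters, and longer transcripts hold more of them, so the numbers are given per 1000 bases. The part of these matches in the levels was not tested.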

How the data were processed

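The deposited values were UMI counts per cell and gene, unscaled, from the BD Rhapsody whole-transcriptome pipeline version 1.8, per the file headers. The submitters' processing notes name mm10 and Seurat, whose use they do not state. Both tables end inside their last line, so 1 incomplete cell each was dropped, leaving 6384 WT cells (80011421 UMIs, at least 3803 a cell) and 3624 Mettl3pKO cells (65779771 UMIs, at least 10719 a cell). Shallower cells were not analysed here.

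The filter on cells was a minimum of 200 genes and a maximum of 25% mitochondrial UMIs. Scrublet marked and removed 338 WT cells (5.30%). It marked 1 Mettl3pKO cell (0.0276%), so it did not work there. The 2000 most variable genes, without the 10 described, gave 30 components and 25 Leiden clusters (scanpy 1.11.5, resolution 1). Clusters took a class from fixed markers; those with a median doublet score above 0.1, or more markers of another class among their top 10 genes, stayed unnamed, a rule set after values were seen.

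Levels are summed UMIs per 1000000 (CPM). Ratios carry exact conditional binomial 95% intervals, levels Poisson ones and shares Clopper-Pearson ones (scipy 1.17.1). No test was made. Log2 ratios had 0.5 UMIs added. Matching weighted WT Cpb1 ranges (edges 1, 3, 10 and 30 UMIs per 10000) by the UMIs of the Mettl3pKO cells, for genes with at least 20 UMIs over both libraries. Likeness used genes past 100 CPM. The interval computation was tested on simulated data. The genes, lists and rules were chosen with earlier results of these data known. Named genes were the 10, the 3 farthest from equal per list and the 8 most alike. Prss1 and Prss2 pairs, Trbc2, Ptf1a, Mettl3, Gp2, Muc1 and Rab27b were named besides. Matching on Cpb1 and cycling together, and the single-gene values by sex transcripts and by depth floor, were added after the data were seen.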

Additional observations from a re-analysis of the deposited data

Results flagged for a closer look

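Of 22 pairs of ratios (11 over all acinar-like cells and 11 at matched Cpb1) compared between cells with a Y-linked UMI and cells with an Xist UMI, 2, both at matched Cpb1, had ratios on opposite sides of 1, and the difference between the kinds of cell was not tested. Prss2 at matched Cpb1 had a Mettl3pKO/WT ratio of 0.802 in Y-linked acinar-like cells and 1.13 in Xist cells, with neither interval reaching 1. 2210010C04Rik had a ratio of 1.42 (1.19 to 1.68) in Y-linked cells and 0.911 in Xist cells, where the interval (0.799 to 1.04) included 1. The Y-linked WT cells numbered 171.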

How the results depend on the processing

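The count of genes at least 1.5-fold lower in Mettl3pKO was 9 or 10 over its 13 settings, and Prss1, Gm5771, Gm10334, Prss3, Try10, Try5, Try4, 2210010C04Rik and Spink1 stayed below WT over all acinar-like cells in each of the 11 run. The direction of Prss2 changed with the cells taken: its ratio was 1.02 under the stricter filter (at least 500 genes, at most 10% mitochondrial UMIs), against 0.755, and 0.802 at matched Cpb1 in Y-linked cells, against 1.46. For the trypsinogen sum (0.310) the ratio was 0.457 under that filter, 0.399 at 13000 UMIs or more, 0.324 at resolution 2, 0.304 with classes from each cell's own markers, 0.290 with digestive enzymes out of the total, 0.279 in Y-linked and 0.214 in Xist cells. For Spink1 (0.169) those values were 0.286, 0.223, 0.180, 0.166, 0.158, 0.197 and 0.157. At matched Cpb1 the sum (0.773) had 0.915 under the stricter filter, 0.849 at 13000 UMIs or more, 0.465 in Y-linked and 0.590 in Xist cells, 0.594 when matched on 9 other genes and 0.818 when matched on cycling too. Spink1 at matched Cpb1 (0.423) had 0.554, 0.481, 0.490, 0.409, 0.329 and 0.440 there, and 0.433 at resolution 2. The cause was not tested. Of the 48 ratios of the sum and Spink1 under alternatives, 21 stayed inside the interval of the main value, 27 did not and 0 changed direction. Of 126 single-gene values, 56 stayed inside it, 68 did not and 2 changed direction. No paired analysis was possible because each genotype has 1 library. The depth of the tables, which lack shallow cells, limits every level given over all acinar-like cells.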
